A study of Rattus norvegicus with 47 samples.

Results

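Frozen hepatocellular adenomas of rats were compared with the liver tissue that surrounds such lesions. The 13 arrays were chosen by their labels, out of 47 arrays of the series: 6 frozen arrays whose group is adenoma and 7 frozen arrays whose source is surrounding tissue. No measured value entered that choice. The adenomas came from 2 male Wistar rats, adenomas 1, 2 and 3 from animal 14 and adenomas 4, 5 and 6 from animal 23. The surrounding samples came from 5 rats, samples 1 and 2 from animal 10, sample 3 from animal 11, sample 4 from animal 14, sample 5 from animal 21 and samples 6 and 7 from animal 23; the title of sample 5 names animal 21, and another of its labels names animal 24. Every rat, and so the surrounding liver too, was given at 4 weeks of age N-nitrosomorpholine, a nitrosamine that initiates tumours, at a single dose of 250 mg/kg, and after 3 weeks of recovery phenobarbital at 50 mg/kg per day in its drinking water for up to 17 months. The surrounding liver is therefore treated tissue of tumour-bearing rats. RNA of whole frozen tissue pieces was read on single-colour Affymetrix arrays, so each value is that of a mixture of cells. The comparison asks which genes separate adenomas from surrounding liver, of which 3 of the 7 samples are of the rats that gave the adenomas.

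An adenoma is a benign tumour of hepatocytes. In rats that receive a genotoxic initiator and then a promoter such as phenobarbital, which acts through the nuclear receptor CAR, foci of altered hepatocytes appear first and some progress to nodules, adenomas and carcinomas. Hepatocytes of resting liver rarely divide and share out metabolism by position: pericentral cells detoxify drugs and take up glutamate, and periportal cells make glucose and urea. Cell division, the NRF2 antioxidant response and this zonal division of labour are the themes of the gene lists used here.

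A gene was called where its adjusted p was under 0.05 in limma (Benjamini-Hochberg adjustment over all 14217 genes), and every change is a log2 difference, adenoma minus surrounding liver, ± standard error. In adenomas 2194 genes were higher (15.4% of those tested) and 1361 lower (9.57%), 453 and 257 of them by at least 2-fold, and the median change over all genes was 0.02. That fit held 26 frozen arrays, so its spread and animal terms also come from nodules and carcinomas, among them 4 carcinomas with a beta-catenin label. With only the 13 adenoma and surrounding arrays 896 genes were higher and 564 lower. In 749 genes (5.27%) all 6 adenomas lay above all 7 surrounding samples, and in 504 (3.55%) they lay below. The surrounding samples differed by animal and by labelled control set. The mean log2 value of the mitosis list was 4.67 to 4.86 in the 3 surrounding samples of animals 14 and 23, against 5.12 to 5.43 in the 4 of other animals. Surrounding samples 2, 5 and 7 carry the control sets of the carcinomas, and samples 4 and 6 those of the adenomas. The mean of the acute phase list was 11.84 to 11.91 in samples 2, 5 and 7, against 11.37 to 11.55 in the other surrounding samples. With only the 9 arrays of animals 14 and 23, 746 genes were higher (5.25%) and 466 lower (3.28%), and 735 and 450 of these were also called in that direction over all animals. The counts in brackets after a list are from these 9 arrays. Where a count of a list differed by over 1.5 times with the labelled control set as block in place of animal, the higher and lower counts of that fit follow as those with the block.

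The marker of proliferation separated the groups completely. Mki67, the Ki-67 protein of dividing cells, had log2 values of 6.31 to 6.75 (median 6.56) in adenomas and 3.93 to 5.24 (median 4.77) in surrounding liver. All 6 adenomas lay above all surrounding samples, and the tumours were alike, each 2.37 to 2.62 above the surrounding array of its own labelled control set. Slc7a11, the cystine importer that supplies glutathione synthesis, had values of 7.83 to 11.77 (median 9.79) in adenomas and 4.85 to 7.98 (median 5.37) in surrounding liver. Adenomas 3, 4 and 6 were at 10.91 to 11.77 and the other 3 at 7.83 to 8.68, and the lowest of them lay just below surrounding sample 5, at 7.98. Krt19, a keratin of bile duct and progenitor cells, had values of 7.69 to 11.14 (median 10.32) in adenomas and 4.58 to 7.64 (median 5.60) in surrounding liver, and adenoma 5, at 7.69, was barely above surrounding sample 5, at 7.64. Cyp1a2, a pericentral drug-metabolising enzyme, had values of 6.31 to 9.50 (median 6.76) in adenomas and 11.03 to 12.36 (median 11.39) in surrounding liver. Its groups were far apart, with adenoma 2 alone above 7.10. All 4 genes were called with the 9 arrays of animals 14 and 23 too, where the changes were 2.58 for Mki67 (adjusted p = 5.16e-05), 4.79 for Slc7a11 (adjusted p = 0.0138), 4.45 for Krt19 (adjusted p = 0.0101) and -4.21 for Cyp1a2 (adjusted p = 0.00788).

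**Figure D1:**
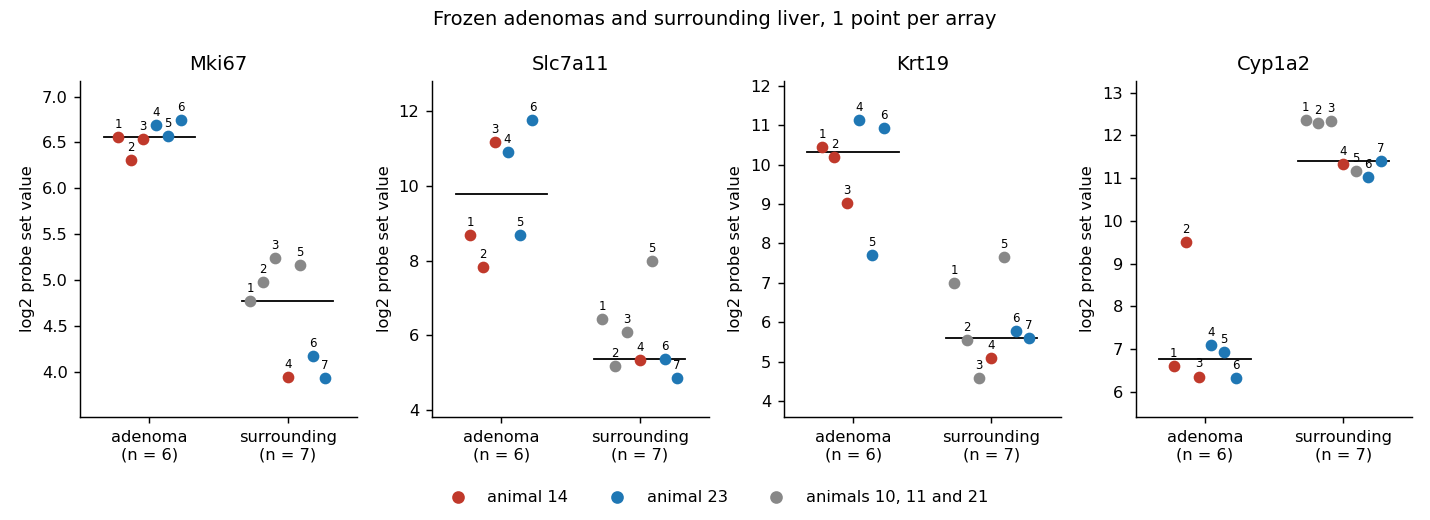
Log2 values of Mki67, Slc7a11, Krt19 and Cyp1a2 in 6 adenomas and 7 surrounding liver samples, 1 point per array, coloured by animal. Mki67 lies at 6.31 to 6.75 in adenomas and 3.93 to 5.24 in surrounding liver, while Slc7a11 and Krt19 spread widely among the adenomas.

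Genes of mitosis rose together. Of 29 measured, 26 were called higher and 0 lower, with a median change of 1.19 (22 higher, 0 lower), and in 11 of them the groups did not overlap. Cdk1, the kinase that drives entry into mitosis, had values of 6.79 to 7.81 (median 7.24) in adenomas and 4.01 to 6.04 (median 5.33) in surrounding liver, a change of 2.88 ± 0.26 (adjusted p = 2.07e-06). Ect2, which directs the cleavage of dividing cells, had values of 6.23 to 7.56 (median 6.82) in adenomas and 4.04 to 5.70 (median 5.23) in surrounding liver, a change of 2.58 ± 0.27 (adjusted p = 7.08e-06). Both were above every surrounding sample in all 6 adenomas. The cyclins Ccna2, Ccnb2 and Ccnb1 rose by 2.43, 1.89 and 1.40, the spindle checkpoint kinase Bub1 by 1.66, the kinesin Kif20a by 1.71 and the topoisomerase Top2a by 1.34. Birc5, Foxm1 and Kif23 did not pass, at 0.37, 0.34 and -0.06 (adjusted p = 0.0865, 0.062 and 0.663). The mean of the list was 5.67 to 6.28 in adenomas and 4.67 to 5.43 in surrounding liver, again without overlap.

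Genes of DNA replication rose by less. Of 26 measured, 20 were called higher and 1 lower, with a median of 0.785 (13 higher, 1 lower, and 16 and 0 with the block). Mcm6, a subunit of the replicative helicase, had values of 7.53 to 8.12 (median 7.80) in adenomas and 5.09 to 6.42 (median 5.68) in surrounding liver, a change of 2.41 ± 0.26 (adjusted p = 7.36e-06). The 5 other measured subunits of that helicase, Mcm4, Mcm5, Mcm3, Mcm2 and Mcm7, rose by 1.36, 1.18, 1.14, 1.01 and 0.80. The licensing factor Cdt1 rose by 1.25, the primase subunit Prim1 by 0.99, the ribonucleotide reductase subunit Rrm1 by 0.98 and the sliding clamp Pcna by 0.86. Mcm10, an initiation factor, was the called member that was lower (-0.47 ± 0.16, adjusted p = 0.0308), and its groups overlapped. It was not called with the control set as block (adjusted p = 0.0908).

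**Figure D2:**
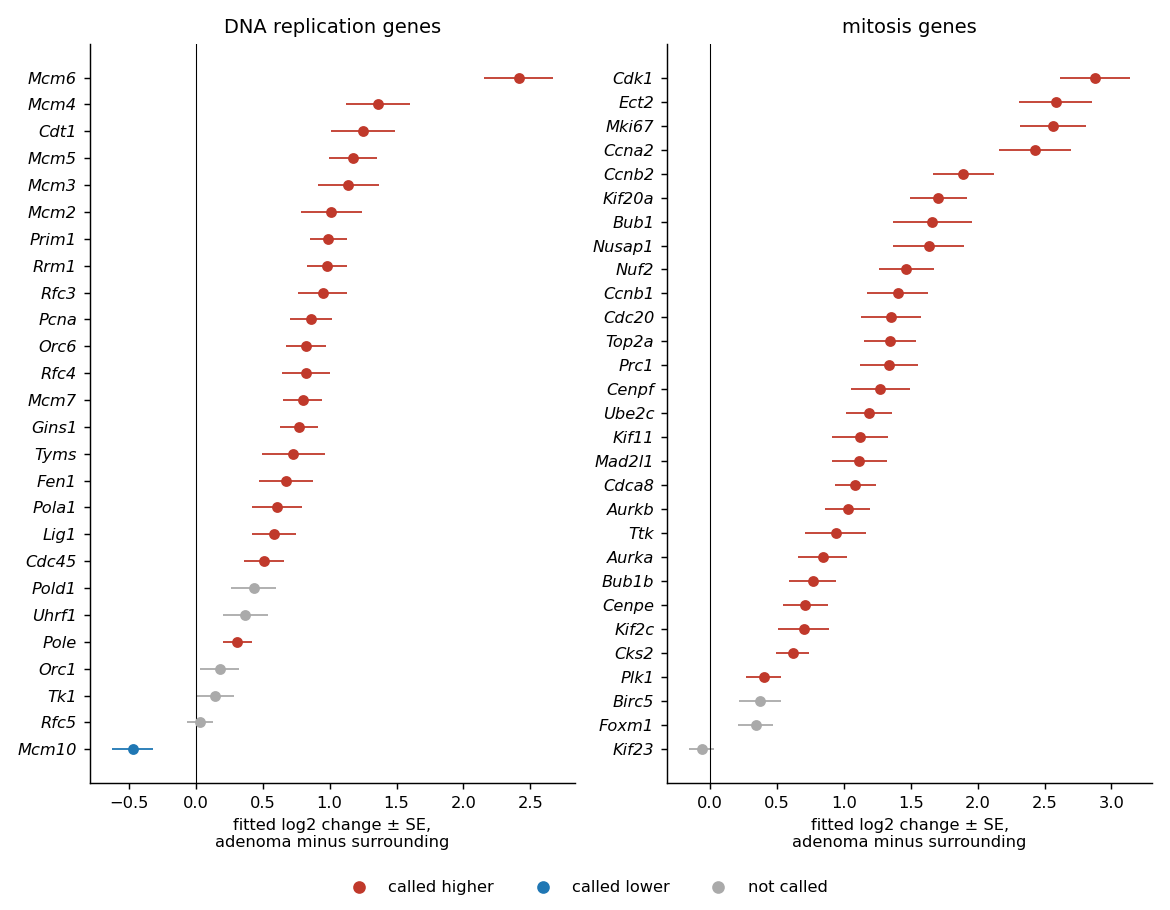
Fitted log2 change, adenoma minus surrounding liver, with its standard error for each measured gene of the DNA replication and mitosis lists, coloured by call. Changes run from -0.47 (Mcm10) to 2.41 (Mcm6) among replication genes and from -0.06 (Kif23) to 2.88 (Cdk1) among mitosis genes.

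Promoters of cell cycle genes are printed because these genes rose together and such promoters are known to share short motifs. E2F factors bind relatives of TTTGGCGC in promoters of replication genes, and the DREAM and MuvB complexes act on mitotic genes through the cell cycle homology region, TTTGAA or TTCGAA, often beside CCAAT boxes. RefSeq promoters of build GRCr8, 250 bases before to 50 after each start, were searched on both strands. The letters TTTGGCGC, TTTCCCGC, TTTGCCGC or TTTCGCGC were in 12 of the 24 replication genes with a promoter in the table (50%), against 2.14% of all 33469 promoters. The cell cycle homology region was in 18 of 25 mitosis genes (72%), against 19.7% of all promoters, and CCAAT in 19 of 25 (76%), against 37.5%. Among the 19 replication genes called higher that have a promoter, 12 held the E2F-like letters. A match describes letters in this window and says nothing of binding in these tumours. The promoters of Mcm6 (chr13:42404303-42404602, minus strand) and Mcm5 (chr19:13488563-13488862, plus strand) have the E2F-like letters in capitals, and matches on opposite strands overlap in both. Those of Cdk1 (chr20:19265043-19265342, plus strand), Ccnb2 (chr8:79981609-79981908, minus strand) and Mki67 (chr1:199952544-199952843, minus strand) have the cell cycle homology region and CCAAT boxes in capitals, and in Mki67 a homology region overlaps a CCAAT box of the other strand.
Mcm6: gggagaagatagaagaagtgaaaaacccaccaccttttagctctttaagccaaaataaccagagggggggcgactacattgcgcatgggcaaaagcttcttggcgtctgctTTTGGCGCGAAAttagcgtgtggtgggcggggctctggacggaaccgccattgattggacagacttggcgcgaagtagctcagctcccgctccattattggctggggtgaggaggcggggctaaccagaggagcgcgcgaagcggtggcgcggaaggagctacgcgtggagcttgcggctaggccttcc
Mcm5: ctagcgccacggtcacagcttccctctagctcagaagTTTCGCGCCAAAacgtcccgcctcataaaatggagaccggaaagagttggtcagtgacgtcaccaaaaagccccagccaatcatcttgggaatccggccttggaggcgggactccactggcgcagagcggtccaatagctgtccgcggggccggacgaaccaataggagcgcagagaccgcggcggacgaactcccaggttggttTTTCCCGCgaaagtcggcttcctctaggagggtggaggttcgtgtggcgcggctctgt
Cdk1: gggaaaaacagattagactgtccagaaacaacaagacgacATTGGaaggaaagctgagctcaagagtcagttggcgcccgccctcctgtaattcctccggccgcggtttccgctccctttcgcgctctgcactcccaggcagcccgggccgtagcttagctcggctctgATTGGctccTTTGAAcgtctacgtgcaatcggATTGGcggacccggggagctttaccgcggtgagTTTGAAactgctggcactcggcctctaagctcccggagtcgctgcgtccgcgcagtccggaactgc
Ccnb2: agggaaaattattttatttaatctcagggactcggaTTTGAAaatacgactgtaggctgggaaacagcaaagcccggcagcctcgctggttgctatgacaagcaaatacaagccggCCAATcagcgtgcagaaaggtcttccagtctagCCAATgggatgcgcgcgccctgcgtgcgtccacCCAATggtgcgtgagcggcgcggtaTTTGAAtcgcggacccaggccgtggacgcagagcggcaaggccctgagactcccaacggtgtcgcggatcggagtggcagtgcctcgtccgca
Mki67: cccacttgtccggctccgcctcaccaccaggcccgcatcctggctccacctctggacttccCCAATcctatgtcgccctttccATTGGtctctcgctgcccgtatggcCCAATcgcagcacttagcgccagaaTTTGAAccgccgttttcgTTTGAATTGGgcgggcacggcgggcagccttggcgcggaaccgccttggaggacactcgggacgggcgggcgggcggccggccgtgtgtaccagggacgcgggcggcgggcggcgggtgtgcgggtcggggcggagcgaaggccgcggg

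Among G1 cyclins and E2F factors, 8 of 13 were higher and 1 lower (4 higher, 0 lower). Ccnd1, the cyclin that starts the passage through G1, had values of 9.38 to 10.43 (median 10.00) in adenomas and 7.10 to 8.71 (median 7.72) in surrounding liver, a change of 1.76 ± 0.27 (adjusted p = 0.000125). The groups did not overlap. Myc, a growth-promoting transcription factor, had values of 9.01 to 9.62 (median 9.44) in adenomas and 7.61 to 9.51 (median 8.86) in surrounding liver, a change of 1.36 ± 0.20 (adjusted p = 7.1e-05), and here the groups overlapped. Its surrounding samples of animals 14 and 23 were at 7.61 to 8.09 and those of the other animals at 8.86 to 9.51. Ccne2 and Ccne1, cyclins of S phase entry, rose by 1.12 and 0.74, and E2f1 rose by 0.98, while the kinase Cdk2 fell by 0.56. Cell cycle inhibitors and p53 targets had no common direction, with 2 of 13 higher, 1 lower and a median of 0.05 (2 higher, 0 lower). These shares are near those over all genes (15.4% and 9.57%). Cdkn2c and Gadd45a rose by 0.68 and 0.64, and Cdkn1c, the imprinted inhibitor p57, fell by 0.77. Cdkn1a, the p53-induced inhibitor p21, had a median of 7.54 in adenomas and 7.52 in surrounding liver and did not pass (-0.54 ± 0.37, adjusted p = 0.303). With the control set as block Ccne1 and Cdk2 (adjusted p = 0.0746 and 0.285) did not pass. The 9 arrays did not call Ccne1, Cdk2 and Cdkn1c (adjusted p = 0.0554, 0.152 and 0.0871).

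NRF2 targets, the genes of the antioxidant response, were higher in 15 of 19 and lower in 0, with a median change of 1.43 (14 higher, 0 lower). Akr1b8, an aldo-keto reductase, had values of 11.83 to 12.92 (median 12.57) in adenomas and 8.45 to 11.36 (median 10.30) in surrounding liver, a change of 3.23 ± 0.48 (adjusted p = 1e-04). Gstp1, the placental glutathione transferase that stains rat liver foci, had values of 13.35 to 14.27 (median 13.76) in adenomas and 10.30 to 13.47 (median 12.74) in surrounding liver, a change of 2.32 ± 0.34 (adjusted p = 8.15e-05). Akr1b8 separated the groups, and Gstp1 did not, since surrounding sample 3, at 13.47, reached into the adenoma range. The surrounding samples of animals 14 and 23 had Gstp1 at 10.30 to 11.63, and those of the other animals at 12.74 to 13.47. Srxn1, which repairs oxidised peroxiredoxins, rose by 2.21, the quinone reductase Nqo1 by 1.67 and the thioredoxin reductase Txnrd1 by 1.46. Tkt, Taldo1 and Pgd, enzymes of the pentose phosphate pathway, rose by 1.68, 1.50 and 1.42. Hmox1, the heme oxygenase, was at 7.53 to 9.18 in adenomas and 8.45 to 9.40 in surrounding liver and did not pass (-0.21, adjusted p = 0.603), nor did Gclm, Ephx1 and Sqstm1 (0.69, 0.17 and 0.03). The list mean was 12.06 to 12.27 in adenomas 3, 4 and 6 and 11.23 to 11.57 in the other 3, against 10.20 to 11.23 in surrounding liver, where sample 5 was highest.

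The antioxidant response element through which NRF2 acts, searched as TGACNNNGC on both strands, was in 4 of 18 promoters of this list (22.2%), against 12.1% of all promoters. The promoters of Gstp1 (chr1:210769656-210769955, minus strand) and Gclm (chr2:213031885-213032184, plus strand) are shown as a called and an uncalled gene that hold it, with the element in capitals; in Gclm it reads on the opposite strand.
Gstp1: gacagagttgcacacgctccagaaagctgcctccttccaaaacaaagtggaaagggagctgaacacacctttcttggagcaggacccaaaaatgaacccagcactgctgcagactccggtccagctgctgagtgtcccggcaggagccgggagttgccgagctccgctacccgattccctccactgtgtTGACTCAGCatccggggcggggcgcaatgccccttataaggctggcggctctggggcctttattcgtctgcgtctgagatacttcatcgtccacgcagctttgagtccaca
Gclm: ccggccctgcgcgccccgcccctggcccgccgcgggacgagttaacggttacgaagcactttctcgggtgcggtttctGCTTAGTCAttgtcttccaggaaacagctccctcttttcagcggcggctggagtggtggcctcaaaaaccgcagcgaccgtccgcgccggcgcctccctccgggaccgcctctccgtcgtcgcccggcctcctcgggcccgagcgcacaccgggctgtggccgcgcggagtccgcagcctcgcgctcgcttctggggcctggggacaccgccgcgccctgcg

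Genes of cystine and glutathione moved both ways, 4 of 13 higher and 3 lower (5 higher, 3 lower). Gpx2, a glutathione peroxidase known best from gut epithelium, had values of 10.08 to 11.37 (median 11.10) in adenomas and 6.89 to 8.76 (median 8.10) in surrounding liver, a change of 2.73 ± 0.48 (adjusted p = 0.000424). Gclc, the catalytic subunit of the first step of glutathione synthesis, rose by 1.72, and Gss, the second step, by 0.97. The transsulfuration enzymes that make cysteine from methionine were lower. Cbs had values of 5.14 to 8.53 (median 6.59) in adenomas and 8.94 to 9.88 (median 9.36) in surrounding liver, a change of -2.65 ± 0.39 (adjusted p = 1e-04), and Cth changed by -1.69 ± 0.31 (adjusted p = 0.000612). Both were below every surrounding sample in all 6 adenomas. Slc3a2, the partner chain of Slc7a11, did not pass (-0.24, adjusted p = 0.444).

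Of 16 serine and one-carbon genes, 6 were higher and 5 lower (5 higher, 2 lower, and 5 and 3 with the block). Phgdh, the first enzyme of serine synthesis, had values of 6.98 to 8.94 (median 7.93) in adenomas and 4.99 to 6.34 (median 5.89) in surrounding liver, a change of 2.68 ± 0.38 (adjusted p = 6.13e-05). Psat1 and Psph, the steps after it, rose by 2.34 and 0.60, and the neutral amino acid transporter Slc1a4 by 2.80. The methionine cycle enzymes typical of liver fell, Gnmt by 1.94, Bhmt by 1.50 and Mat1a by 0.93, and in these 3 every adenoma lay below every surrounding sample. Mat2a, the methionine adenosyltransferase of other tissues, rose by 0.64. ATF4 targets had no common direction, 3 of 12 higher and 3 lower, with a median of 0.03 (2 higher, 2 lower). Asns, which makes asparagine, rose by 2.13, and Atf4 itself fell by 0.34. Not called with the control set as block were Psph, Mat1a and Atf4 (adjusted p = 0.199, 0.0503 and 0.104), nor with the 9 arrays Psph, Mat1a and Atf4 (adjusted p = 0.109, 0.0948 and 0.141).

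Of the foci and oncofetal markers, 5 of 15 were higher and 2 lower (5 higher, 0 lower, and 4 and 0 with the block). Anxa2, an annexin, had values of 10.47 to 11.46 (median 11.37) in adenomas and 7.86 to 9.54 (median 8.19) in surrounding liver, a change of 3.07 ± 0.35 (adjusted p = 1.18e-05). Sox4, a developmental transcription factor, had values of 10.43 to 11.27 (median 10.79) in adenomas and 8.71 to 9.48 (median 9.01) in surrounding liver, a change of 1.66 ± 0.19 (adjusted p = 1.21e-05). Neither overlapped between the groups. Aldh3a1, an aldehyde dehydrogenase induced in rat liver tumours, was at 11.51 to 12.74 in adenomas 3, 4 and 6 and 6.39 to 6.94 in adenomas 1, 2 and 5, against 5.22 to 7.81 in surrounding liver. The 3 tumours high in Aldh3a1 were the 3 high in Slc7a11. Ggt1, another classical enzyme of foci, had values of 9.08 to 10.77 (median 9.73) in adenomas and 8.17 to 9.29 (median 8.90) in surrounding liver and did not pass (1.59 ± 0.62, adjusted p = 0.0639). It was called higher in 3 of 25 alternatives, among them the 9 arrays (1.70, limma, adjusted p = 0.00725). The fetal genes Afp and Gpc3 did not pass (-0.72 and 1.58, adjusted p = 0.23 and 0.0711). Gpc3 was at 5.85, 6.85 and 7.20 in adenomas 1, 2 and 6 and 4.11 to 4.31 in the other 3, against 3.46 to 4.38 in surrounding liver. The growth factor Igf2 and the RNA-binding protein Igf2bp3 fell by 0.51 and 0.74. Under the control set block Aldh3a1, Igf2 and Igf2bp3 (adjusted p = 0.176, 0.172 and 0.0615) were not called, and the 9 arrays did not call Aldh3a1, Igf2 and Igf2bp3 (adjusted p = 0.13, 0.123 and 0.219) either.

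The 12 largest rises were taken among genes that also passed with the labelled control set as block and whose groups did not overlap, so their separation is no result. Beside genes already named, they held Slc66a3, Pcdh17, B3galnt1, Map2, Pcp4, Spint1, Emp1 and Ctse. Slc66a3, a membrane protein of the PQ-loop family, had values of 7.93 to 9.40 (median 8.63) in adenomas and 4.45 to 6.69 (median 5.42) in surrounding liver, a change of 3.51 ± 0.34 (adjusted p = 4.04e-06). Pcdh17, a protocadherin, had values of 5.28 to 7.65 (median 6.98) in adenomas and 3.40 to 4.08 (median 3.52) in surrounding liver, a change of 3.46 ± 0.42 (adjusted p = 1.75e-05), from a level near the low end of the scale in surrounding liver. Pcp4, a calmodulin-binding peptide, was at 9.51 and 9.49 in adenomas 1 and 2 and 11.39 to 11.47 in the other 4, against 7.55 to 9.44 in surrounding liver. Spint1, an inhibitor of membrane serine proteases, rose by 2.92, and St14, the protease matriptase that it inhibits, rose by 2.02. The glycosyltransferase B3galnt1 rose by 3.36, the microtubule protein Map2 by 3.25, the membrane protein Emp1 by 2.81 and the protease Ctse by 2.81. Of these genes the 9 arrays did not call Map2 and St14 (adjusted p = 0.0773 and 0.0836).

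Markers of bile duct and progenitor epithelium divided the adenomas. Of 14 measured, 3 were called higher (Krt19, St14 and Epcam) and 0 lower, with a median of 1.27 (2 higher, 0 lower). Epcam, an adhesion protein of progenitor cells, had values of 10.27 to 11.65 (median 11.11) in adenomas and 9.24 to 9.87 (median 9.44) in surrounding liver, a change of 1.40 ± 0.28 (adjusted p = 0.00107). The list mean was 7.64, 7.48 and 6.76 in adenomas 1, 2 and 6 and 5.49 to 5.89 in the other 3, against 4.97 to 5.33 in surrounding liver. Spp1, osteopontin, was at 10.95, 10.91 and 8.32 in adenomas 1, 2 and 6 and 5.48 to 5.92 in the other 3, against 5.40 to 6.20 in surrounding liver, and did not pass (2.15 ± 0.82, adjusted p = 0.061). Krt7, a bile duct keratin, was at 7.38 and 8.07 in adenomas 1 and 2 and 4.25 to 4.66 in the other 4, against 3.89 to 4.38 in surrounding liver. Krt19 was also high in adenoma 4, at 11.14, where Spp1 and Krt7 were low. Cftr, the chloride channel of bile duct cells, was at 3.88 to 5.11 in adenomas and 4.24 to 4.44 in surrounding liver (adjusted p = 0.968), near the lowest levels on the array. The summed linear level of the list was 2045 to 9124 in adenomas and 1012 to 1524 in surrounding liver, and its part in the other changes was not tested. The hepatocyte keratins Krt8 and Krt18 rose by 0.87 and 0.80 (1 higher, 0 lower), and Krt8 (adjusted p = 0.058) was not called with the 9 arrays.

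Pericentral genes were lower in 9 of 15 and higher in 0, with a median of -1.29 (0 higher, 6 lower, and 0 and 3 with the block). Avpr1a, a vasopressin receptor of pericentral hepatocytes, had values of 3.42 to 7.71 (median 4.55) in adenomas and 8.47 to 9.35 (median 8.84) in surrounding liver, a change of -4.02 ± 0.65 (adjusted p = 0.000215). Cyp2e1, which oxidises ethanol, had values of 10.56 to 13.37 (median 11.88) in adenomas and 13.44 to 13.98 (median 13.73) in surrounding liver, a change of -1.93 ± 0.40 (adjusted p = 0.00167). Neither overlapped, and for Avpr1a, as for Cyp1a2, adenoma 2 was the highest adenoma. The glutamate transporter Slc1a2 fell by 2.55, the ornithine aminotransferase Oat by 2.19 and the transcription factor Tbx3 by 1.85. Glul, the glutamine synthetase of the innermost pericentral cells and a target of beta-catenin, had values of 8.40 to 10.35 (median 9.67) in adenomas and 9.91 to 10.80 (median 10.33) in surrounding liver and did not pass (-1.04 ± 0.68, adjusted p = 0.277). Axin2, Lgr5, Nkd1 and Znrf3, which are some of the other beta-catenin targets and not all of them, did not pass either (-0.70, -0.27, -0.05 and -0.67). Znrf3 was called lower with the 9 arrays (-0.73, limma, adjusted p = 0.0393). Axin2, Lgr5 and Nkd1 were not called there (adjusted p = 0.174, 0.634 and 0.947). With the control set as block Slc1a2, Oat and Tbx3 (adjusted p = 0.173, 0.0706 and 0.0991) did not pass, and with the 9 arrays Cyp2e1 (adjusted p = 0.0701) did not. In bulk tissue, fewer cells of a type and less RNA per cell cannot be told apart.

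Periportal genes were lower in 8 of 16 and higher in 0, with a median of -0.90 (0 higher, 5 lower, and 0 and 4 with the block). Sds, a serine dehydratase that feeds glucose synthesis, had values of 5.46 to 9.87 (median 6.65) in adenomas and 9.24 to 10.32 (median 10.15) in surrounding liver, a change of -2.72 ± 0.62 (adjusted p = 0.00319). Ass1, of the urea cycle, had values of 9.53 to 11.78 (median 10.58) in adenomas and 12.02 to 13.27 (median 12.64) in surrounding liver, a change of -2.14 ± 0.66 (adjusted p = 0.0216). The groups overlapped for Sds and did not for Ass1. The tyrosine aminotransferase Tat fell by 2.14 and the glutaminase Gls2 by 1.96. In surrounding samples 2, 5 and 7 Ass1 was at 13.21 to 13.27 and Tat at 10.48 to 11.03. In the other surrounding samples Ass1 was at 12.02 to 12.64 and Tat at 8.97 to 9.74. Cps1, Otc and Arg1, also of the urea cycle, did not pass (-0.41, -0.20 and -0.28). Asl, a further enzyme of that cycle, was called lower with the 9 arrays (-0.99, limma, adjusted p = 0.0487). The control set block left Ass1 and Gls2 (adjusted p = 0.15 and 0.0733) uncalled, and the 9 arrays left Sds and Gls2 (adjusted p = 0.0824 and 0.0927) uncalled.

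Measured genes of the CAR and PXR list, which holds both receptors and genes that respond to phenobarbital through them, were called in both directions. Of 14 measured, 2 were higher and 4 lower, with a median of -0.15 (0 higher, 3 lower). The list mean was 10.93 to 11.42 in adenomas and 11.53 to 11.88 in surrounding liver, without overlap. The list has 20 genes, and its members Cyp2b1 and Cyp2b2 were not among those measured. Cyp2c7, a cytochrome of rat liver with close relatives, had values of 9.26 to 13.03 (median 10.39) in adenomas and 13.54 to 14.00 (median 13.83) in surrounding liver, a change of -2.42 ± 0.61 (adjusted p = 0.00632). Nr1i2, the receptor PXR itself, had values of 7.70 to 8.27 (median 7.93) in adenomas and 8.62 to 9.44 (median 8.83) in surrounding liver, a change of -0.96 ± 0.16 (adjusted p = 0.000262). Both lay below every surrounding sample, whereas Nr1i3, the receptor CAR, did not pass (-0.03, adjusted p = 0.891). Nr1i2 was at 9.13 to 9.44 in surrounding samples 2, 5 and 7 and at 8.62 to 8.83 in the other surrounding samples. Of the aryl hydrocarbon receptor genes, 2 of 9 were higher and 3 lower (1 higher, 3 lower, and 1 and 3 with the block). Cyp1a1, the classical target of that receptor, had values of 4.47 to 8.08 (median 5.05) in adenomas and 8.71 to 9.78 (median 9.22) in surrounding liver, a change of -3.78 ± 0.44 (adjusted p = 1.26e-05). The receptor's partner Arnt fell by 1.02, and Cyp1b1, Ahrr and Tiparp, also targets, did not pass (0.20, 0.05 and -0.04). The 2 higher members were the targets Nqo1 and Aldh3a1. Aldh3a1 rose by 3.54 ± 1.20 (limma, adjusted p = 0.0358). It was not called with the control set as block (adjusted p = 0.176) or with the 9 arrays (adjusted p = 0.13).

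Growth hormone and male liver genes had the lowest median of the 30 lists, -1.73, with 10 of 12 lower and 0 higher (0 higher, 5 lower, and 0 and 5 with the block). Igfals, the subunit that holds IGF1 in blood, had values of 7.03 to 8.81 (median 7.70) in adenomas and 9.66 to 10.03 (median 9.79) in surrounding liver, a change of -2.25 ± 0.31 (adjusted p = 6e-05). Ghr, the growth hormone receptor, had values of 9.47 to 11.03 (median 10.06) in adenomas and 11.13 to 11.72 (median 11.47) in surrounding liver, a change of -1.32 ± 0.21 (adjusted p = 2e-04). Both lay below every surrounding sample. Igf1 fell by 1.62, the male steroid dehydrogenase Hsd3b5 by 2.68 and the male cytochrome Cyp2c11 by 1.98, all with overlapping groups. Obp3, a pheromone carrier of male rats, was at 4.72 to 11.25 in adenomas and 5.50 to 12.69 in surrounding liver. Its surrounding samples of animals 14 and 23 were at 11.64 to 12.69 and those of the other animals at 5.50 to 8.48, and with the 9 arrays its change was -4.85 (adjusted p = 0.0226). The falls of Igf1 and Cyp2c11 were not called with the control set as block (adjusted p = 0.0872 and 0.0983) or with the 9 arrays (adjusted p = 0.0861 and 0.104).

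**Figure D3:**
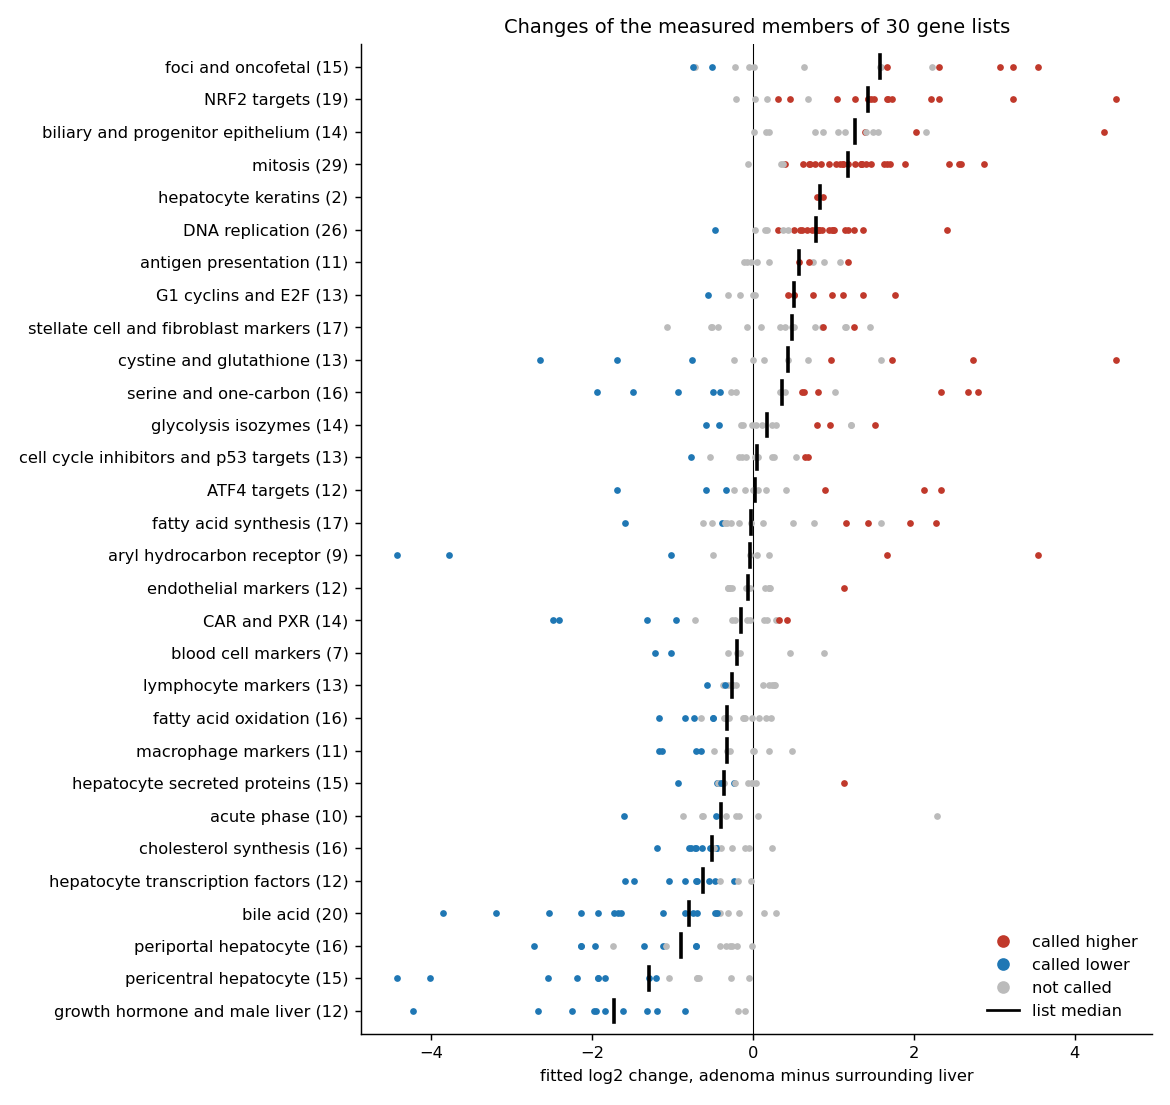
Fitted log2 change, adenoma minus surrounding liver, of each measured member of 30 gene lists, 1 point per gene coloured by call, with the list median as a bar and the number measured in brackets. Medians run from -1.73 for growth hormone and male liver genes to 1.58 for foci and oncofetal markers, and several lists hold called genes on both sides of 0.

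Bile acid genes were lower in 14 of 20 and higher in 0, with a median of -0.80 (0 higher, 6 lower, and 1 and 11 with the block). Slc27a5, which activates bile acids for conjugation, had values of 7.13 to 11.38 (median 8.80) in adenomas and 11.83 to 12.99 (median 12.30) in surrounding liver, a change of -3.20 ± 0.64 (adjusted p = 0.00119). Cyp8b1, which makes cholic acid, had values of 6.15 to 9.84 (median 6.51) in adenomas and 9.55 to 10.91 (median 10.13) in surrounding liver, a change of -3.85 ± 0.85 (adjusted p = 0.00245), with overlapping groups. The uptake carriers Slco1b2, Slco1a1, Slco1a4 and Slc10a1 fell by 2.54, 2.14, 1.73 and 1.68, and in all 4 every adenoma lay below every surrounding sample. Cyp7a1, the rate-limiting enzyme of synthesis, fell by 1.93 (adjusted p = 0.0384) and was not called with the control set as block (adjusted p = 0.197) or with the 9 arrays (adjusted p = 0.161), which did not call Slco1b2, Slco1a1 and Slco1a4 (adjusted p = 0.0741, 0.0723 and 0.0673) either. The exporters Abcc2 and Abcc3 did not pass (0.14 and 0.29). The exporters Abcb11 and Abcb4 changed by -0.75 and -0.42 with the 9 arrays, which did not call them (limma, adjusted p = 0.0559 and 0.236). Against its labelled control array each adenoma differed by -1.29 to -0.23 for Abcb11 and by -1.02 to 0.10 for Abcb4.

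Cholesterol synthesis was lower in 10 of 16 and higher in 0, with a median of -0.51 (0 higher, 6 lower). Hsd17b7, an enzyme of its late steps, had values of 7.77 to 8.74 (median 8.12) in adenomas and 9.13 to 9.72 (median 9.41) in surrounding liver, a change of -1.20 ± 0.18 (adjusted p = 9.6e-05), and Sqle, the squalene epoxidase, fell by 0.80. In fatty acid synthesis 4 of 17 were higher and 2 lower (5 higher, 1 lower, and 3 and 1 with the block). Elovl6, which elongates palmitate, had values of 7.36 to 10.73 (median 9.88) in adenomas and 7.02 to 9.19 (median 7.33) in surrounding liver, a change of 2.28 ± 0.50 (adjusted p = 0.0022). The desaturase Scd rose by 1.95 and the synthase Fasn by 1.16, whereas the desaturase Fads2 fell by 1.59. Fatty acid oxidation was lower in 5 of 16, with a median of -0.32 (0 higher, 3 lower), among them the peroxisomal enzyme Ehhadh by 1.17 and the regulator Ppara by 0.85. Of the glycolysis isozymes 3 of 14 were higher, Hk1 (1.51), Aldoa (0.96) and Pfkm (0.79), and 2 lower, the glucose carrier Slc2a2 (-0.42) and Pfkl (-0.58) (2 higher, 0 lower, and 2 and 1 with the block), shares near those over all genes (15.4% and 9.57%). Not called with the control set as block were Scd, Hk1 and Pfkl (adjusted p = 0.0535, 0.0584 and 0.214), nor with the 9 arrays Ppara, Pfkm, Slc2a2 and Pfkl (adjusted p = 0.0517, 0.129, 0.0826 and 0.208).

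Transcription factors of hepatocytes were lower in 9 of 12 and higher in 0, with a median of -0.63 (0 higher, 2 lower). Cebpa, which holds hepatocytes in the resting, differentiated state, had values of 7.82 to 8.84 (median 8.34) in adenomas and 9.17 to 10.68 (median 9.52) in surrounding liver, a change of -1.48 ± 0.26 (adjusted p = 0.000434). Hnf4a, the central regulator of hepatocyte genes, had values of 11.33 to 11.60 (median 11.55) in adenomas and 11.61 to 11.79 (median 11.72) in surrounding liver, a change of -0.24 ± 0.08 (adjusted p = 0.0414). Its groups did not overlap, but the change was small and was called in 8 of 25 alternatives, with adjusted p = 0.0784 with the control set as block and 0.221 with the 9 arrays. Proteins that hepatocytes secrete were at high levels in both tissues, with list means of 13.47 to 13.72 in adenomas and 13.81 to 13.91 in surrounding liver. Alb was at 15.06 to 15.13 in adenomas and 15.03 to 15.13 in surrounding liver, near the top of the scale, where differences may be compressed. Of these 15 genes 5 were lower, by 0.93 for the clotting factor F9 and by 0.45 or less for the others, and Apoa1 was higher by 1.13 (1 higher, 1 lower, and 0 and 3 with the block). Of the acute phase genes 2 of 10 were lower, Crp by 1.60 and Hpx by 0.46 (0 higher, 1 lower, and 0 and 1 with the block). Under the control set block Serpina1, Apoa1 and Hpx (adjusted p = 0.137, 0.0573 and 0.395) were not called, and the 9 arrays did not call Serpina1 and Hpx (adjusted p = 0.161 and 0.281).

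The 12 largest falls under the same choice held, beside Cyp1a2, Avpr1a, Cyp1a1 and Slc27a5, the genes Akr1c1, AKR1C3l1, C6, Mug1, Tpd52l1, Kcnj15, Gstp3 and Cyp4a8. Akr1c1 and AKR1C3l1 are close relatives, and probe sets may not separate them. Akr1c1 had values of 5.12 to 8.27 (median 5.71) in adenomas and 8.30 to 9.91 (median 9.46) in surrounding liver. C6, a complement component, had values of 4.47 to 7.96 (median 5.88) in adenomas and 8.19 to 9.78 (median 9.12) in surrounding liver, a change of -3.20 ± 0.40 (adjusted p = 2.37e-05). Gstp3, a glutathione transferase of the same class as Gstp1, had values of 6.27 to 8.71 (median 7.25) in adenomas and 10.03 to 11.39 (median 10.83) in surrounding liver, a change of -2.86 ± 0.33 (adjusted p = 1.23e-05), opposite in direction to Gstp1. The potassium channel Kcnj15 fell by 2.89, the fatty acid hydroxylase Cyp4a8 by 2.78, the protease inhibitor Mug1 by 3.08 and Tpd52l1 by 3.05. Mug1 was at 8.26 to 8.96 in surrounding samples 1, 3, 4 and 6 and 11.08 to 11.36 in samples 2, 5 and 7. Its adenoma values were 5.57 to 8.03, and surrounding samples 6 and 7 are both of animal 23.

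Markers of the other cell types of liver are read against the shares called over all genes, 15.4% higher and 9.57% lower. The counts below rest on few genes, and those of stellate cell and endothelial markers were under these shares. Of 11 macrophage markers, 4 were lower and 0 higher (0 higher, 1 lower, and 0 and 2 with the block). Clec4f, a receptor of resident Kupffer cells, had values of 8.31 to 10.83 (median 9.68) in adenomas and 10.42 to 11.05 (median 10.71) in surrounding liver, a change of -1.13 ± 0.27 (adjusted p = 0.00384), with overlapping groups. Cd5l, a macrophage protein, fell by 1.17, and Lyz2, shared by many myeloid cells, did not pass (0.48, adjusted p = 0.538). Of 17 stellate cell and fibroblast markers 2 were higher, Timp1 by 1.26 and Sparc by 0.87 (0 higher, 0 lower, and 1 and 0 with the block). Their mean was 8.10, 8.44 and 7.50 in adenomas 1, 2 and 6 and 6.70 to 7.11 in the other 3, against 6.89 to 7.48 in surrounding liver, so the tumours high in bile duct markers were also the highest here. Of 12 endothelial markers Emcn was higher by 1.13 (0 higher, 0 lower, and 0 and 0 with the block), and Pecam1 did not pass (0.19, adjusted p = 0.445). With the control set as block Clec4f, Sparc and Emcn (adjusted p = 0.0555, 0.0758 and 0.0629) did not pass, nor with the 9 arrays Clec4f, Timp1, Sparc and Emcn (adjusted p = 0.072, 0.0534, 0.112 and 0.115).

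Of 13 lymphocyte markers 3 were lower, Ccl5, Nkg7 and Cd79b, by 0.57, 0.35 and 0.26 (0 higher, 0 lower, and 0 and 0 with the block), and the T cell gene Cd3e did not pass (0.12, adjusted p = 0.662). None of the 3 lower genes was called with the control set as block (adjusted p = 0.208, 0.28 and 0.206) or with the 9 arrays (adjusted p = 0.172, 0.171 and 0.168). Of 7 blood cell markers the red cell genes Hbb and Alas2 fell by 1.22 and 1.02 (0 higher, 2 lower), with Hbb at 9.84 to 12.34 in adenomas and 12.19 to 13.19 in surrounding liver. Of 11 antigen presentation genes 3 were higher, the class II chain RT1-Da (1.17), its regulator Ciita (0.69) and the immunoproteasome subunit Psmb9 (0.57) (0 higher, 0 lower). The control set block did not call RT1-Da and Ciita (adjusted p = 0.0593 and 0.0913), and the 9 arrays did not call RT1-Da, Ciita and Psmb9 (adjusted p = 0.202, 0.29 and 0.0668). The summed linear level of the macrophage markers was 4215 to 13260 in adenomas and 7922 to 11080 in surrounding liver, and that of the stromal markers 3293 to 11100 in adenomas and 3652 to 5605 in surrounding liver. Their part in the changes of hepatocyte genes was not tested.

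**Figure D4:**
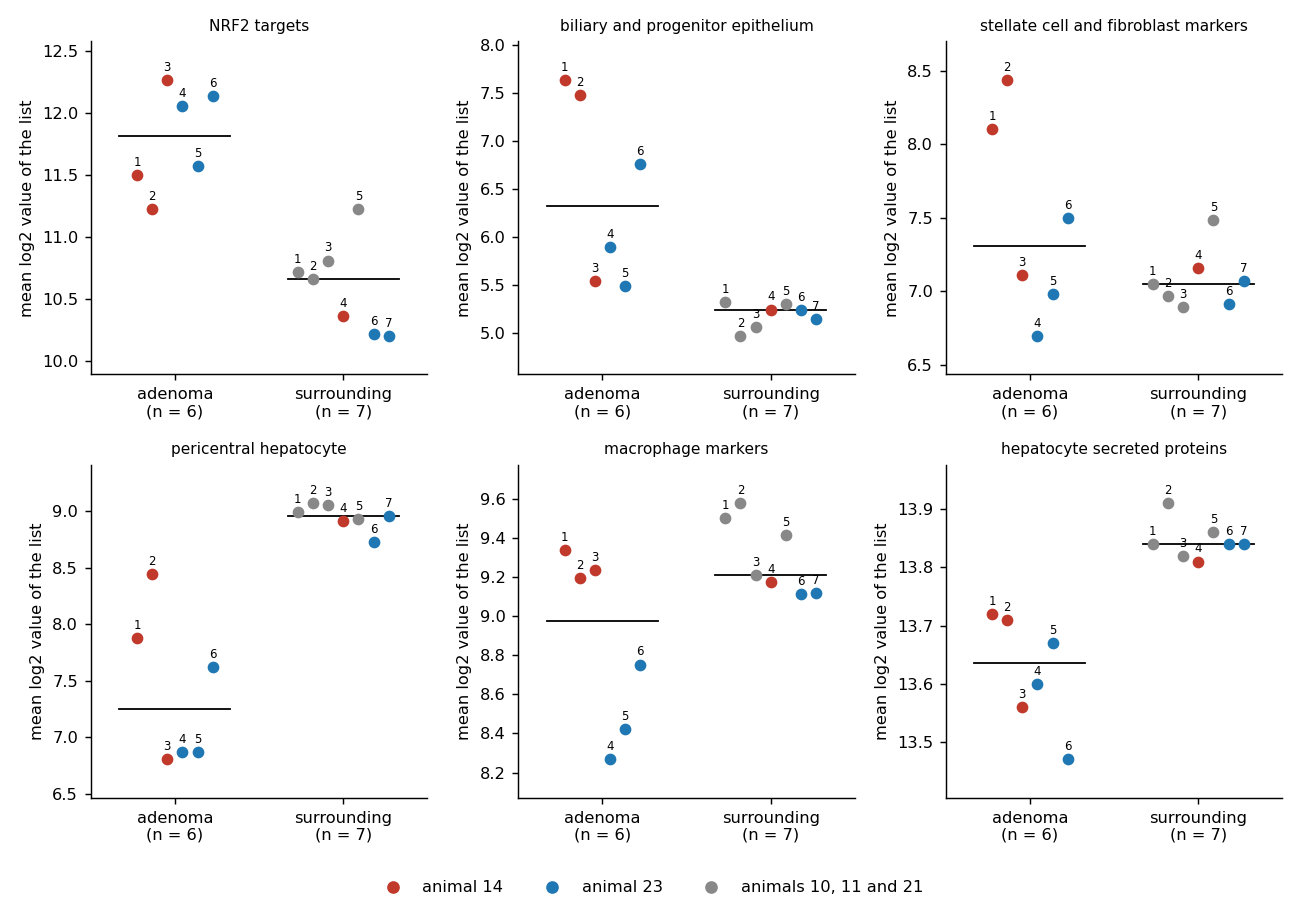
Mean log2 value of gene lists in each of 6 adenomas and 7 surrounding liver samples, 1 point per array, coloured by animal. Bile duct markers average 7.64, 7.48 and 6.76 in adenomas 1, 2 and 6 and 4.97 to 5.33 in surrounding liver, and macrophage markers 9.20 to 9.34 in the adenomas of animal 14 and 8.27 to 8.75 in those of animal 23.

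Each tumour was also set against the surrounding array of its labelled control set, as a description without a test. At least 2-fold higher were 912, 805 and 626 genes in adenomas 1, 2 and 3 and 560, 323 and 907 in adenomas 4, 5 and 6. At least 2-fold lower were 386, 67 and 424 genes in adenomas 1, 2 and 3 and 422, 224 and 432 in adenomas 4, 5 and 6. Adenoma 2 had the fewest lower genes and adenoma 5 the fewest higher ones. The difference of the adenoma effect between animals 14 and 23 was called in 0 of 14217 genes (0%) by limma, with 353 genes at an unadjusted p under 0.05. Within animal 14, which has 1 surrounding array, 3 genes were called, and within animal 23 958 were. The effect on Mki67 was 2.52 ± 0.33 in animal 14 and 2.62 ± 0.26 in animal 23, a difference of -0.09 ± 0.42 (adjusted p = 0.997). That on Slc7a11 was 3.90 ± 1.16 in animal 14 and 5.34 ± 0.92 in animal 23, a difference of -1.45 ± 1.48 (adjusted p = 0.997).

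Adenomas were set beside frozen nodules (n = 5) and carcinomas without a mutation label (n = 4) of rats under the same treatment. Only nodule 5, of animal 14, and carcinoma 4, of animal 23, share a rat with adenomas. Both contrasts therefore rest mostly on comparisons between rats. Against nodules limma called 0 genes (0%), with 2265 at an unadjusted p under 0.05, but 198 were higher and 239 lower without a replicate block, and 102 higher and 112 lower without adenoma 2. Mki67 differed by 1.23 ± 0.29 (adjusted p = 0.0844) and Cyp1a2 by -3.31 ± 0.81 (adjusted p = 0.0844), and neither passed. Against carcinomas 253 genes were higher in adenomas (1.78%) and 166 lower (1.17%). Both counts were 0 with the labelled control set as block, and also without adenoma 6, carcinoma 1 or carcinoma 4. Within that limit 4 mitosis and 4 replication genes were higher in adenomas than in carcinomas, among them Cdk1 (1.65, adjusted p = 0.0265) and Mcm6 (1.54, adjusted p = 0.0271). The AMP deaminase Ampd3 was higher by 2.91 (adjusted p = 0.0425) and St14 by 2.34 (adjusted p = 0.0378). Lower in adenomas than in carcinomas were Cyp8b1 (-4.10, adjusted p = 0.042) and Gulo, the last enzyme of vitamin C synthesis (-1.94, adjusted p = 0.0343).

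Formalin-fixed, paraffin-embedded (FFPE) adenomas (n = 5) and surrounding tissue (n = 4), isolated by laser capture microdissection, share no array with the frozen samples. By their titles 2 of the FFPE adenomas are of the same tumours as frozen adenomas 2 and 3, and another label of 1 of these 2 reads surrounding tissue. In FFPE tissue 183 genes were higher (1.29%) and 124 lower (0.872%), against 136 and 60 without the FFPE adenoma whose labels conflict and 133 and 28 without a replicate block. Also higher in frozen adenomas were 136 of the 183 (74.3% of the FFPE list and 6.2% of the frozen list), and also lower were 104 of the 124 (83.9% of the FFPE list and 7.64% of the frozen list). Without the adenoma of conflicting labels these were 105 of 136 (77.2%) and 51 of 60 (85%). Opposite in direction were 2 genes, Cbarp (0.29 in frozen and -1.41 in FFPE tissue) and Cnnm2 (-0.46 in frozen and 1.09 in FFPE tissue), which are named for that after their values were seen; without that adenoma Cbarp was not called in FFPE tissue (adjusted p = 0.129). NRF2 targets were higher in 15 of 19 in FFPE adenomas, and in 13 without that adenoma. Of the mitosis and replication genes 0 of 29 and 0 of 26 were called higher there by limma (2 and 3 genes at an unadjusted p under 0.05), with Mki67 at 0.95 and Cdk1 at 0.49 (limma, adjusted p = 0.331 and 0.727). Krt19, Pcp4 and Cyp1a2 were called in FFPE tissue in the same direction (2.53, 4.58 and -2.82), and Slc7a11 was not (1.75, adjusted p = 0.146). Without that adenoma Krt19 was not called either (adjusted p = 0.075). The probe set of a gene was chosen separately in frozen and in FFPE arrays and can differ between them. Whether frozen and FFPE changes differ was not tested.

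**Figure D5:**
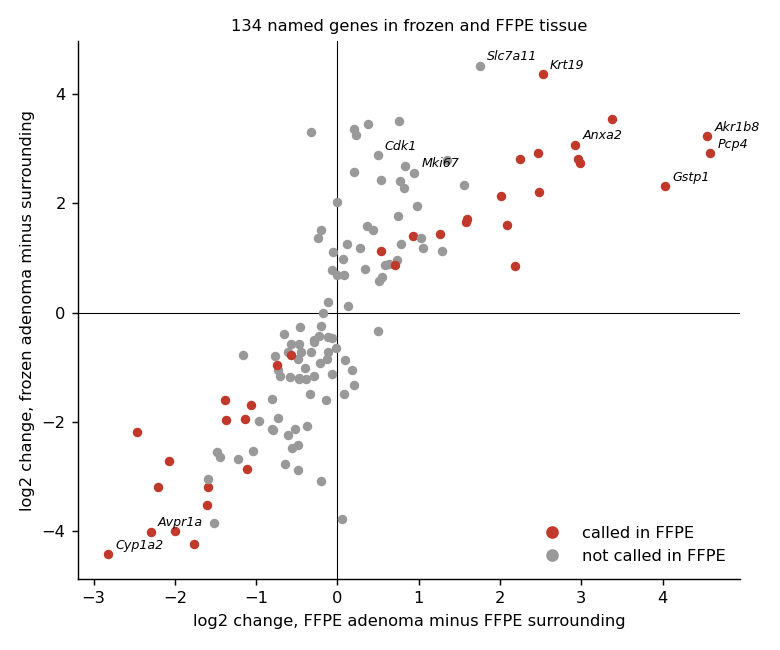
Log2 change in FFPE tissue (x axis) and in frozen tissue (y axis), adenoma minus surrounding in both, for 134 named genes, with genes called in FFPE tissue in red. Pcp4, Akr1b8 and Gstp1 lie farthest right (4.58, 4.55 and 4.03), and Mki67 and Cdk1 lie nearer the vertical axis (0.95 and 0.49). The probe set of a gene can differ between the axes.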

How the data were processed

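Messenger RNA of frozen rat liver tissue was measured on single-colour Affymetrix arrays. The values are log2 probe set summaries as deposited by the authors; their background correction and normalization are not given in the sources used here, and array medians of the 13 arrays ran from 5.486 to 5.57. All 47 columns were assigned by their labels, and 0 were left unassigned. Of 31042 probe sets 20826 carry 1 gene symbol in the platform annotation, which can be old, and the probe set with the highest mean stood for its gene (14217 genes). Probe sets of close relatives (Akr1c, Cyp2c, Gstm, Mug) may cross-hybridise, so those genes are uncertain. No level was compared between genes.

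In R 4.3.3 with limma 3.58.1 (lmFit, then eBayes with trend), 26 frozen arrays were fitted with group and animal as terms, leaving 17 residual degrees of freedom, and p-values were adjusted by Benjamini-Hochberg. These were 6 adenomas, 7 surrounding samples, 5 nodules, 4 carcinomas without a mutation label and 4 carcinomas with a beta-catenin label. The FFPE arrays (18) were fitted separately, and the probe set with the highest mean was chosen again among them. The code was tested on simulated data. Animal is a block because arrays of 1 rat share that rat: over 50 pairs of arrays of different groups within an animal the median correlation of deviations was 0.127, against -0.025 over 217 pairs between animals. No 2 of the 13 arrays were identical (r at most 0.9932). Tumours of 1 rat are not separate animals, so p-values measure the spread between these samples. The number of arrays limits the precision.

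The named genes are the 4 markers, the 12 largest rises and 12 largest falls described in the report, up to 4 called members of each list with the largest change, 17 defining genes and the 6 largest differences in each direction from nodules and carcinomas; other list members are given as examples after their values were seen. The members and gene lists were chosen with earlier results of these data known. Alternatives covered the block, the arrays fitted, normalization, the choice of probe set, a filter on low values, the trend and leaving out each array.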

Additional observations from a re-analysis of the deposited data

Results flagged for a closer look

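Of 146 group values screened (43 genes and 30 list means, each in adenomas and in surrounding liver), 6 had 1 sample far from the others; chance flags about 1 in 20 groups. Adenoma 2 was high for Cyp1a2, at 9.504 with the next adenoma at 7.096, and for Akr1c1, at 8.273 with the next at 5.871. Surrounding sample 3 was low for Akr1c1, at 8.296 with the next at 9.224. Surrounding sample 5, whose labels name 2 different animals, was high for Anxa2, at 9.537 with the next at 8.476, and for the mean of the cystine and glutathione list, at 10.24 with the next at 9.779. Adenoma 6 was high for the mean of the ATF4 list, at 7.918 with the next at 7.632.

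For 2 lists the tumours of animal 14 lay on one side of their own labelled control array and those of animal 23 on the other, a difference that was not tested. The mean of cell cycle inhibitors and p53 targets was 0.062 to 0.172 above the control array in animal 14, and its difference was -0.234 to -0.0268 in animal 23. The mean of macrophage markers was 0.0199 to 0.166 above it in animal 14, and its difference was -0.847 to -0.361 in animal 23.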

How the results depend on the processing

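Against surrounding liver, the 2194 higher and 1361 lower genes became 1189 and 933 with the labelled control set as replicate block, 896 and 564 with only the 13 arrays, 746 and 466 with the 9 arrays of animals 14 and 23, 110 and 28 with only the labelled control arrays, and 453 and 257 at 2-fold or more; the smaller fits have fewer samples. Leaving out each array gave 1615 to 2255 higher and 962 to 1374 lower genes. Without animal as a replicate block the counts were 2394 and 1600. The share of calls that were higher was 61.7%, against 57.1% after quantile normalization and 57.8% after median centring. Of 134 named genes, 108 kept their direction and side of the threshold with the control set as block, 103 with the 13 arrays, 94 with the 9 arrays, 33 with only the labelled control arrays (100 no longer passed there) and 118 to 130 when an array was left out, and none of the alternatives reversed a called gene.

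The difference between animals stayed at 0 genes in its alternatives. Against nodules the count of 0 became 198 higher and 239 lower without the replicate block, and 0 to 102 higher and 0 to 112 lower when an array was left out (102 and 112 without adenoma 2, 56 and 25 without adenoma 5, 46 and 18 without nodule 4, 15 and 6 without adenoma 4, 2 and 1 without adenoma 3). Against carcinomas the 253 and 166 genes became 0 and 0 with the control set as replicate block, 1531 and 791 without a block, and 0 to 325 higher and 0 to 181 lower when an array was left out (143 and 72 without adenoma 5, 100 lower without adenoma 4). In FFPE tissue 183 and 124 became 133 and 28 without the replicate block and 136 and 60 without FFPE adenoma 4, whose labels conflict. Causes of these shifts were not tested. Few rats, 1 surrounding array in animal 14, an unstated normalization and values near the floor or ceiling of the arrays limit all of these results.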
